A study of Mus musculus with 48 samples.

Results

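Cells that carried transcripts of both T (brachyury) and Krt18 (keratin 18) are described here against cells that carried neither, among 48 single mouse cells. A cell counted as positive when T and Krt18 were each at 10 FPKM or more, and as negative when each was below 1 FPKM. FPKM scales the fragments of a gene to its length and to the fragments mapped in the cell. The members were thus chosen by the measured levels of these 2 genes. The rule found 15 positive and 13 negative cells and left out 20. Of those left out, 5 had T at 10 FPKM or more with less Krt18 (T-only cells), 10 had Krt18 at 10 FPKM or more with less T (Krt18-only cells), and 5 reached 10 FPKM for neither gene.

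All cells, positive and negative, came from mouse embryonic stem cells of strain 129P2/OlaHsd that carry an inducible Mesp1, a basic helix-loop-helix factor of nascent cardiovascular mesoderm. The stem cells differentiated in embryoid bodies, which are floating aggregates, and Mesp1 was switched on by 500 ng/ml doxycycline added on day 2.25 and withdrawn on day 3.25. Live cells, negative for propidium iodide, were sorted on day 4, and a Fluidigm C1 device isolated them 1 by 1. The labels give all of them the same treatment and name no separate cultures, so there was no uninduced group, each side stood as 1 sample, and no p-value was made from cells.

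T is a T-box transcription factor of the primitive streak, the site where cells of the epiblast epithelium leave as mesoderm and definitive endoderm, and it stays active in the node and notochord. Keratin 18 is a type I intermediate filament protein that pairs with the type II keratin 8 in simple epithelia. Cells that pass through the streak undergo an epithelial-to-mesenchymal transition, in which E-cadherin gives way to N-cadherin and vimentin. Anterior streak cells form the node, the notochord and the endoderm, while other streak cells form lateral, cardiac, extraembryonic and paraxial mesoderm.

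The values of T and Krt18 chose the cells and are given as a description. T had a lowest value of 13.2 FPKM, a median of 68.7 FPKM and a highest value of 473 FPKM in positive cells, against at most 0.895 FPKM in negative cells. Krt18 ran from 29.3 FPKM through a median of 245 FPKM to 601 FPKM in positive cells and reached at most 0.378 FPKM in negative cells. Just inside the rule stood positive cell C22, with T at 13.2 FPKM. The highest T below 10 FPKM was 8.89 FPKM, in cell C15, which fell outside on both genes because its Krt18 was listed at 0. Cell C08, with Krt18 at 10.3 FPKM, was left out because its T was listed at 0. On the negative side, C43 was the nearest inside, with T at 0.895 FPKM, and C45 the nearest outside, with Krt18 at 1.86 FPKM. Krt18 was listed at 0 in all 5 T-only cells, whose T values were 20.1, 20.3, 43.4, 44.5 and 137 FPKM.

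**Figure D1:**
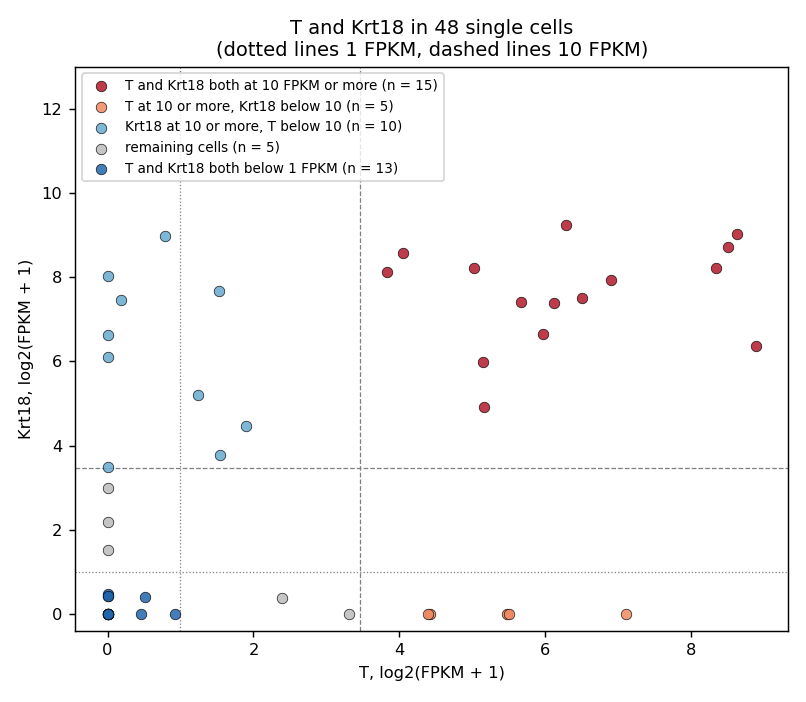
T (horizontal) and Krt18 (vertical) in each of the 48 cells as log2(FPKM + 1), coloured by class, with dotted lines at 1 FPKM and dashed lines at 10 FPKM. The 15 positive cells fill the upper right corner, the 5 T-only cells lie on the floor where Krt18 is 0, and the 10 Krt18-only cells lie at the upper left.

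The number of genes at 1 FPKM or more was similar on both sides, with 4878 to 7010 genes (median 6205) in positive cells and 4788 to 6678 genes (median 6204) in negative cells. Cells with a label number above 48 made up 8 of 15 positive and 8 of 13 negative cells. All 12 housekeeping genes passed the filter on low values, none was called, and their median difference was 0.07. FPKM keeps no read count, so the sequencing depth is unknown. A value listed at 0 can be a transcript missed in a single cell, and all intervals cover counting error only.

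The label of streak-like cells was checked against 18 streak and nascent mesoderm genes other than T. Positive cells had 3 to 12 of them at 1 FPKM or more (median 8), and negative cells had 4 to 12 (median 6). These ranges overlap almost entirely. Streak genes were thus present in cells with and without T and Krt18, so the cells are called here by the genes of the rule.

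The starts of the genes of the rule and of Krt8, the partner keratin of Krt18, are shown because Krt8 was high in positive cells and its level followed Krt18. Krt8 and Krt18 lie next to each other on chromosome 15 and are transcribed away from each other, with 23874 bases between the RefSeq starts used below and 0 GENCODE M21 genes between the 2 annotated genes. Each run below is RefSeq sequence of GRCm38.p6, 5′ to 3′ on the gene's own strand, with 250 bases before and 50 bases from the annotated start. The windows are chr17:8434173-8434472 on the plus strand for T, chr15:102027966-102028265 on the plus strand for Krt18 and chr15:102004293-102004592 on the minus strand for Krt8. Capitals mark matches, on either strand, to 4 motifs searched: CTTTGA of TCF/LEF factors, the nuclear partners of WNT signalling, TCACACC of T-box factors, the GC box GGGCGG and the TATA box TATAAA.
T: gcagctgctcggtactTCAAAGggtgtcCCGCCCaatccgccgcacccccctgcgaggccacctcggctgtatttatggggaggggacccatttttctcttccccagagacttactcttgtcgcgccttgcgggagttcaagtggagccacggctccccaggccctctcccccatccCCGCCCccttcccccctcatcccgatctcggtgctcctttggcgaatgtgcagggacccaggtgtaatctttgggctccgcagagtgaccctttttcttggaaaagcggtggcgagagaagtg
Krt18: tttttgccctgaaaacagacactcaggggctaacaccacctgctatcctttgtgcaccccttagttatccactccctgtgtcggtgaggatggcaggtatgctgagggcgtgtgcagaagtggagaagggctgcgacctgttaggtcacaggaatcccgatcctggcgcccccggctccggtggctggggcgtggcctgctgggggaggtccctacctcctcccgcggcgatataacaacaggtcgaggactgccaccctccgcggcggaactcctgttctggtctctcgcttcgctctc
Krt8: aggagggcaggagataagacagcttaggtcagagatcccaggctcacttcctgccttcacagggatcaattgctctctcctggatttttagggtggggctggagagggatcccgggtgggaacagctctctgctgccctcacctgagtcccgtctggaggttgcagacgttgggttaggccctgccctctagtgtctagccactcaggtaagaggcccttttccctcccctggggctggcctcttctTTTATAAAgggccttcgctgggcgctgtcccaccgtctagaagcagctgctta
The T window held 1 TCF/LEF match at position -234 from the start, on the reverse strand, and 2 GC boxes at -222 and -73. The Krt18 window held none of these letters, and the Krt8 window held 2 overlapping TATA matches, at -3 and -1. Among all 32851 promoter windows, 16% held the TCF/LEF letters, 35.7% a GC box, 13.6% a TATA match and 3.98% the T-box letters. Among the 8608 windows of genes that passed the filter on low values the shares were 11.6%, 65.4%, 6.78% and 3.04%, in the same order of motifs. A match is a description of the letters and shows no binding.

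Across all genes, positive and negative cells differed in a small set. Differences are given as the mean of log2(FPKM + 1) in positive cells minus that in negative cells, and a gene was called at 2 or more in either direction, which is 4-fold on this scale. Of 9346 genes other than T and Krt18 that reached 1 FPKM in at least 5 of the 28 cells, 76 were higher in positive cells (0.813%) and 35 were lower (0.374%). The median difference over all of them was 0.03. Differences of 3 or more were found for 13 higher and 4 lower genes. The sides overlapped for every gene: the count of genes whose values did not overlap was 0 (0.0% in each direction).

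The leading higher gene was Upp1, uridine phosphorylase of pyrimidine salvage. Upp1 was detected in 15 of 15 positive cells, from 39.6 FPKM through a median of 231 FPKM to 816 FPKM, against 7 of 13 negative cells, from 0 through a median of 8.33 FPKM to 219 FPKM. The difference was 4.78, the largest of all genes; the sides overlap between 39.6 and 219 FPKM. Among the 30 leading genes Upp1 also moved most with the label number, with a difference of 1.54 among cells numbered up to 48 and 6.80 among higher numbers. Car2 and Car4, carbonic anhydrases, were 3.57 and 3.65 higher. Car2 was at 2.32 to 647 FPKM (median 207) in positive cells, against 0 to 591 FPKM (median 6.22) in negative cells. Calca, the gene of calcitonin and its related peptide, was detected in 11 of 15 positive cells (73.3%, exact Clopper-Pearson 95% interval 44.9% to 92.2%), at a median of 34.8 FPKM and at most 136 FPKM. It was listed at 0 in all 13 negative cells, which allows a share of up to 23.1%. The remaining genes of the leading 15 that belong to no list were Gstz1 and Gstt2 (glutathione transferases), Zcchc18 and Pim2 (a survival kinase), with differences of 3.47, 3.10, 3.0 and 2.95.

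**Figure D2:**
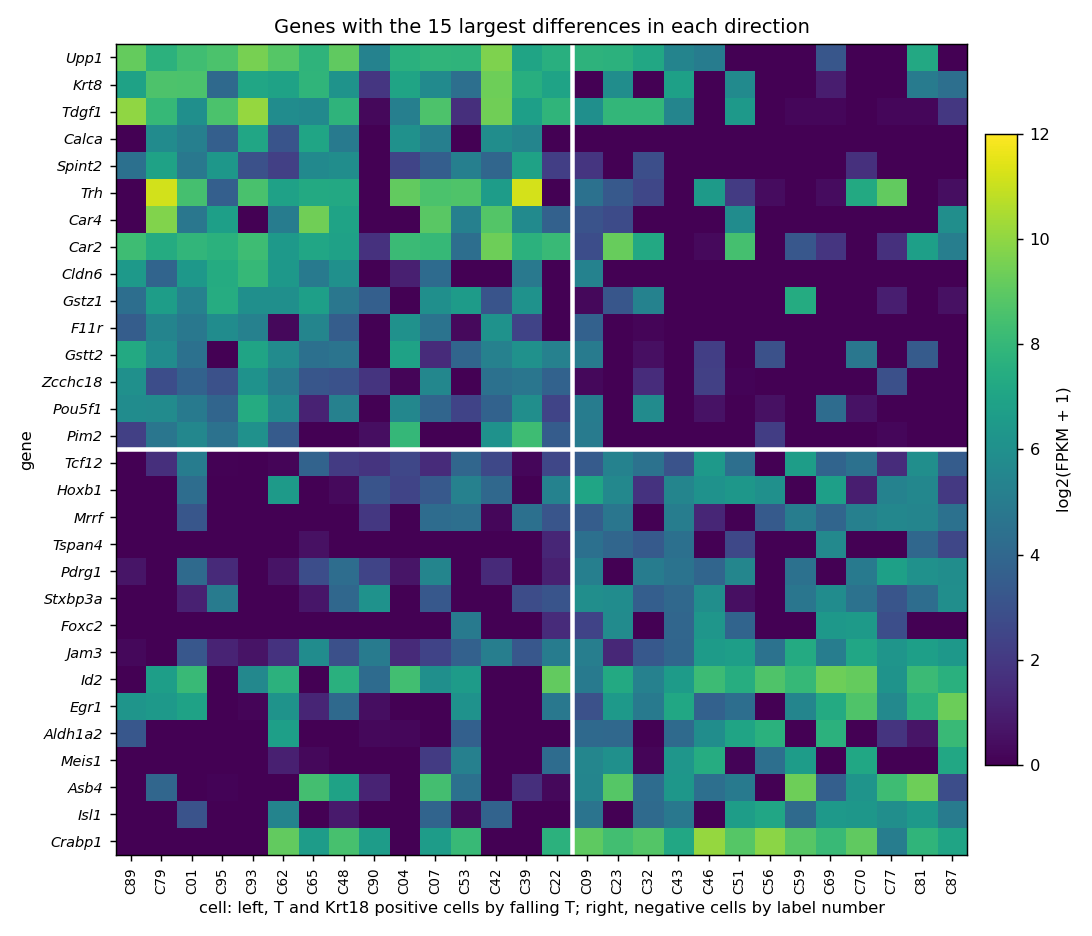
Level of the 15 genes with the largest differences in each direction (rows, higher genes above the white line) in each cell (columns), coloured by log2(FPKM + 1), with positive cells at the left by falling T and negative cells at the right by label number. Krt8 and Upp1 are coloured in every positive cell, and Crabp1 in every negative cell but in only 7 positive cells. Cell C90, the positive cell with the fewest detected genes (4878), is dark for most of the higher genes.

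All 30 leading genes kept their direction when cells numbered up to 48 (7 positive and 5 negative) and cells with higher numbers (8 and 8) were taken apart. These 30 genes were picked by their differences over the same cells, so their kept direction is a description and no support. Of the 30, 22 stayed at 2 or more in the lower numbers and 28 in the higher numbers. Krt8 differed by 4.80 and 3.96 in the 2 sets of label numbers, Crabp1 by -5.43 and -4.29, and Isl1 by -1.05 and -5.30.

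Several epithelial genes were higher in positive cells. Of 30 keratin, cadherin, claudin, desmosome and protease inhibitor genes, 5 were called higher (Krt8, Spint2, Cldn6, F11r and Cdh1) and 0 lower. The shares called among all genes were 0.813% higher and 0.374% lower. Over all 30 the median difference was 0.69, and 29 had a positive and 1 a negative sign. Over the 18 that passed the filter the median was 1.67, but genes such as Krt19 and Cldn7 passed it only through the positive cells, so that value is no support. Positive cells had 4 to 19 of the 30 genes at 1 FPKM or more (median 12), and negative cells had 1 to 9 (median 3).

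Krt8 was detected in 15 of 15 positive cells (100%, interval 78.2% to 100%), at a lowest value of 2.72 FPKM, a median of 123 FPKM and a highest value of 648 FPKM. In negative cells Krt8 was detected in 5 of 13 (38.5%, interval 13.9% to 68.4%), with a median of 0 and a highest value of 110 FPKM. The difference was 4.40; 5 positive cells lay within the range of the negative cells. GENCODE M21 lists a processed copy, Krt8-ps, with which reads could be shared. Cdh1, which encodes E-cadherin of adherens junctions, was at 0 to 134 FPKM (median 8.45) in positive cells, 12 of 15 detected, against 0 to 4.67 FPKM in negative cells, 2 of 13 detected. Its difference was 2.78.

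The tight junction genes Cldn6 (claudin 6) and F11r (junctional adhesion molecule A) differed by 3.56 and 3.28. Cldn6 was detected in 11 of 15 positive cells, at a median of 27.9 FPKM and at most 258 FPKM, and in 1 of 13 negative cells, at 39.5 FPKM. That negative cell lay above the median of the positive cells. Spint2, a membrane-bound inhibitor of serine proteases in epithelia, was at 0 to 121 FPKM (median 20.9) in positive cells, against at most 6.35 FPKM in negative cells, a difference of 3.76. Its relative Spint1 came just short of the mark of 2 and was detected in 10 of 15 positive and 1 of 13 negative cells.

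Several epithelial genes below the mark appeared mainly in positive cells. Krt19, another type I keratin, was detected in 5 positive cells at up to 82.3 FPKM and was listed at 0 in all T-only, Krt18-only and negative cells. Cldn7 was detected in 6 of 15 positive cells and 0 of 13 negative cells, Epcam in 9 and 2, and the desmosomal Dsp in 10 and 4, with differences of 1.69, 1.70 and 1.65. Krt7 reached 1 FPKM in 3 positive and 0 negative cells. Krt10, a keratin of differentiated skin, stayed low on both sides, at up to 10.1 FPKM in positive and 4.93 FPKM in negative cells.

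The positive cells with epithelial transcripts also held mesenchymal ones. Cdh1 stood beside Vim (vimentin) in 11 of the 12 positive cells and 2 of the 2 negative cells in which Cdh1 was detected. Vim was detected in nearly all positive cells, so this pairing is near what the frequency of Vim alone would give. Krt8, Cdh1 and Cldn6 were detected together in 10 of 15 positive and 0 of 13 negative cells. Cdh2 (N-cadherin) was detected in 15 of 15 positive cells at 8.42 to 193 FPKM (median 35.7), against 12 of 13 negative cells at 0.372 to 68.5 FPKM (median 21.7), a difference of 1.51 that was not called.

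Mesenchymal genes as a list stood slightly lower in positive cells. Positive cells had 4 to 12 of 20 mesenchymal genes at 1 FPKM or more (median 7), and negative cells had 6 to 17 (median 11). Of 20 such genes, 15 passed the filter, 0 were called in either direction, and the median difference was -0.56, with 13 negative and 2 positive signs; over all 20 genes the median was -0.39. Vim was at 0 to 542 FPKM (median 163) in positive cells and 14.9 to 978 FPKM (median 65.7) in negative cells, a difference of -0.24. Pdgfra, a growth factor receptor of early mesoderm, had a difference of -1.88, Cdh11 (cadherin 11) of -1.55, and Twist1, a regulator of mesenchyme, of -1.26. The basement membrane list had 10 of 15 genes pass the filter, 0 called and a median of 0.05. For both lists a count of 0 is near the share over all genes, 0.813% higher and 0.374% lower.

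Streak genes other than T differed less. Of the 18, 15 passed the filter, 2 were called higher and 0 lower, and the median was 0.84 over these 15 and 0.55 over all 18. Among all genes 0.813% were called higher and 0.374% lower. Mixl1, a homeobox gene of streak-derived mesendoderm, was at 0 to 512 FPKM (median 26.3; 12 of 15 detected) in positive cells, against 0 to 136 FPKM (median 0; 6 of 13 detected) in negative cells. Its difference of 2.21 dropped below 2 on leaving out any of 11 single cells, to 1.91 without C04. Sp8, a zinc finger factor of the Sp family, was detected in 8 of 15 positive cells at up to 147 FPKM and in 2 of 13 negative cells at up to 23.1 FPKM, a difference of 2.46. Eomes, the T-box factor of early mesendoderm, was detected in 12 of 15 positive and 8 of 13 negative cells (difference 1.49), Lhx1, a LIM homeobox gene of the anterior streak, in 14 and 10 (1.02), and Fgf8, a ligand needed for cells to leave the streak, in 7 and 4 (1.63). Wnt3, the ligand that starts streak formation, was detected in 7 and 6 cells and Nodal in 3 and 3.

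Mesp1, the induced gene, was detected in 8 of 15 positive cells, with a lowest value of 0, a median of 6.90 FPKM and a highest value of 94.5 FPKM, and in 10 of 13 negative cells, at 0 to 254 FPKM (median 24.5). The difference was -1.41, below the mark, and the ranges overlap over the whole span of the positive cells. The table does not separate transcripts of the inducible and the endogenous copy. Snai1, a repressor of E-cadherin, had a like difference of -1.40, with detection in 8 positive and 9 negative cells. Of the T-box family besides T and Eomes, Tbx6 of presomitic mesoderm was detected in 5 positive and 1 negative cells, Tbx3 in 6 and 6, Tbx20 in 2 and 4, and Tbx5 in 0 and 2.

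Several genes of the node, notochord and definitive endoderm were higher in positive cells, each in part of them. Of 13 genes, 4 were called higher (Trh, Cer1, Foxa2 and Hhex) and 0 lower. The shares called among all genes were 0.813% higher and 0.374% lower. Some of the 4 genes passed the filter on low values only through the positive cells, so their count is a description. The median difference was 0.45 over all 13 and 2.45 over the 7 that passed the filter; genes such as Foxa2 passed it only through the positive cells, so the second value is no support. Foxa2, a forkhead factor of the node, notochord, floor plate and endoderm, was detected in 8 of 15 positive cells (53.3%, interval 26.6% to 78.7%) at up to 104 FPKM and was listed at 0 in all 13 negative cells. Its difference was 2.5. Hhex, a homeobox gene of anterior endoderm, was at up to 63.1 FPKM in positive cells, 9 of 15 detected, and at up to 1.76 FPKM in negative cells, 1 of 13 detected, a difference of 2.45. Cer1, which encodes a secreted inhibitor of Nodal and BMP ligands, was detected in 8 positive cells (median 45.2 FPKM, highest 1435 FPKM in C39) and 4 negative cells (highest 491 FPKM), a difference of 2.93. Trh, the gene of thyrotropin-releasing hormone, was detected in 12 of 15 positive cells (median 155 FPKM, highest 2407 FPKM, again in C39), against 7 of 13 negative cells (median 3.27 FPKM, highest 557 FPKM), a difference of 3.68.

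Markers with a narrower role were rarer. Chrd, a BMP antagonist secreted by the node, was detected in 7 positive and 1 negative cells with a difference of 1.72. Noto, a homeobox gene of the node, was detected in 3 positive cells, C48, C93 and C95, at up to 43.9 FPKM, and was listed at 0 in all negative cells. Shh, the hedgehog ligand of the notochord, was detected in 2 positive cells, C65 and C79, at up to 25 FPKM and in 0 negative cells. Sox17, a defining gene of definitive endoderm, reached 1 FPKM in 1 positive cell, at 6.94 FPKM, and in 0 negative cells.

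Epiblast genes were mixed. Of 23 pluripotency and epiblast genes, 19 passed the filter, 3 were called higher, 0 lower, and the median was 0.34. Among all genes 0.813% were called higher and 0.374% lower. Pou5f1 (Oct4) was detected in 14 of 15 positive cells (93.3%, interval 68.05% to 99.8%), at 0 to 165 FPKM (median 29.6), against 3 of 13 negative cells (23.1%, interval 5.04% to 53.8%), at up to 53.8 FPKM. Its difference was 2.98. Tdgf1 (Cripto), the co-receptor of Nodal, was at 0.197 to 1081 FPKM (median 225) in positive cells and 0 to 248 FPKM (median 0.169) in negative cells, a difference of 3.96; GENCODE M21 lists processed copies of Tdgf1 that could share reads. Fgf5, a ligand of the primed epiblast, was detected in 10 positive cells at up to 92.1 FPKM and in 1 negative cell at 27.8 FPKM, a difference of 2.91. Pou5f1 and Tdgf1 were detected together in 14 of 15 positive and 2 of 13 negative cells. Other core genes stood closer: Nanog differed by 1.04 and was detected in 15 of 15 positive and 12 of 13 negative cells, while Sox2 differed by -0.73.

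Genes of retinoic acid handling and of later mesoderm were among the lower genes. Crabp1, a cellular retinoic acid binding protein, was detected in 7 of 15 positive cells (46.7%, interval 21.3% to 73.4%), with a median of 0 and a highest value of 557 FPKM. It was detected in 13 of 13 negative cells (100%, interval 75.3% to 100%), with a lowest value of 33.2 FPKM, a median of 446 FPKM and a highest value of 1088 FPKM. The difference of -4.77 was the largest among lower genes. Aldh1a2, which makes retinoic acid, was detected in 3 of 15 positive cells at up to 109 FPKM and in 9 of 13 negative cells at up to 276 FPKM (median 16 FPKM), a difference of -2.99. Dhrs3, a reductase that lowers retinal, went the other way, with 8 of 15 positive cells at up to 84.9 FPKM and all negative cells listed at 0, a difference of 2.35. Of the 8 genes of the retinoic acid list, 7 passed the filter, 1 was called higher (Dhrs3) and 1 lower (Crabp1), and the median was -0.26. Among all genes 0.813% were called higher and 0.374% lower.

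Some cardiac and lateral plate genes were lower in positive cells. For the counts below, the shares called among all genes were 0.813% higher and 0.374% lower. Of 19 genes, 0 were called higher and 2 lower; over all 19 the median was -0.45, with 15 negative, 2 positive and 2 zero differences, and over the 10 that passed the filter it was -0.78. Isl1, a LIM homeobox gene of second heart field progenitors, was detected in 4 of 15 positive cells (26.7%, interval 7.79% to 55.1%) at up to 42.2 FPKM, against 11 of 13 negative cells (84.6%, interval 54.55% to 98.1%) at a median of 30.8 FPKM and up to 137 FPKM. Its difference was -3.59. Hand1, a factor of lateral and extraembryonic mesoderm, was detected in 5 positive cells at up to 197 FPKM and 8 negative cells at up to 523 FPKM. Its difference of -2.01 fell short of 2 on leaving out any of 18 single cells, and reached -1.58 without C56. Mef2c, a muscle and vascular factor, and Fgf10, a ligand of the second heart field, were at -1.55 and -1.41.

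The paraxial list had 7 of 14 genes pass the filter and a median of -0.66. It had 0 genes called higher and 2 lower, beside 0.813% and 0.374% among all genes. Its lower genes were Aldh1a2 and Foxc2, a forkhead factor detected in 2 of 15 positive and 8 of 13 negative cells (difference -2.51). Its paralogue Foxc1 was at -1.62. Outside the lists, the homeobox cofactor genes Meis1 and Meis2 had differences of -3.05 and -2.17, and Hoxb1, a Hox gene of early mesoderm, of -2.23. Meis1 was detected in 4 of 15 positive cells at up to 36.5 FPKM and in 8 of 13 negative cells at a median of 44.6 FPKM. Meis2 was named after its values were seen. Jam3, given next, differed by -0.69 among cells numbered up to 48 and by -3.97 among higher numbers. Asb4 (an ankyrin repeat protein), Jam3 (a junctional adhesion molecule), Tcf12 (an E protein that pairs with basic helix-loop-helix factors) and Tspan4 (a tetraspanin) were at -3.32, -2.62, -2.22 and -2.27; Tspan4 came just short of 2 without negative cell C69.

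**Figure D3:**
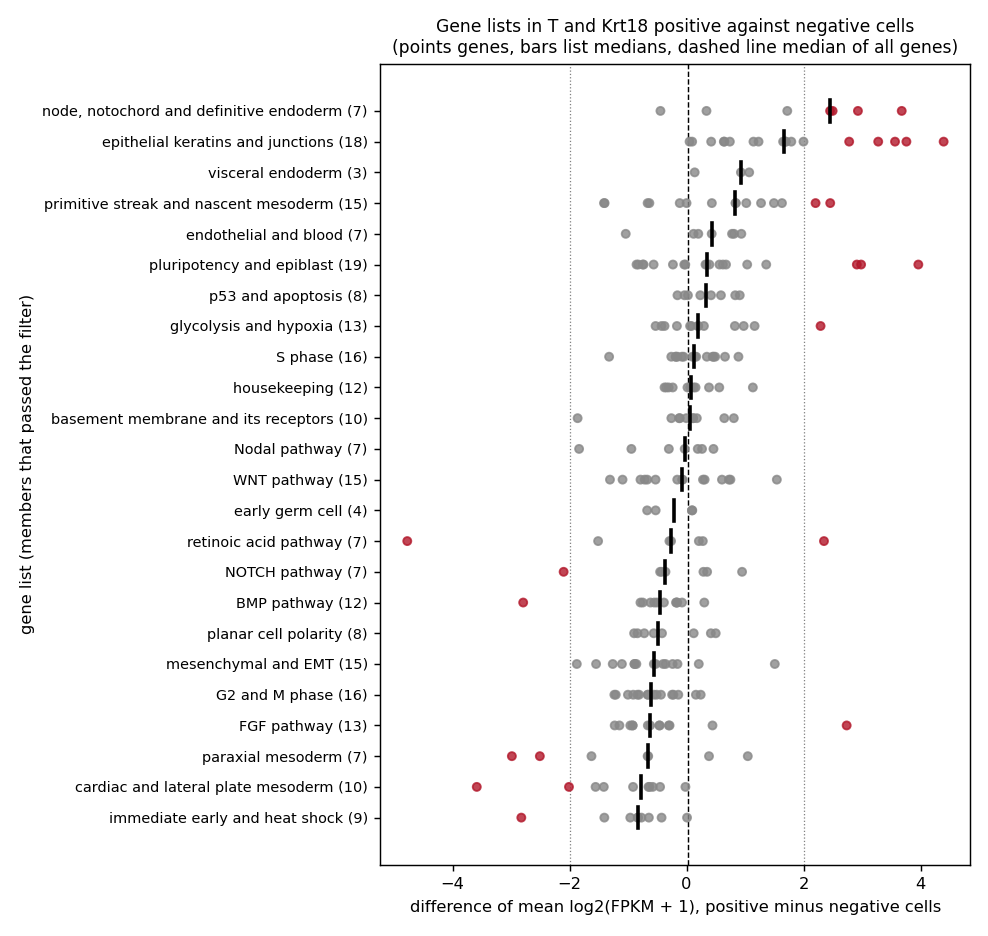
Difference of mean log2(FPKM + 1), positive minus negative cells (horizontal), for each gene that passed the filter (points), by list (rows, ordered by median), with called genes in red, medians of the genes that passed as black bars, dotted lines at -2 and 2 and a dashed line at the median of all 9346 genes. Among genes that passed, the node and endoderm list and the epithelial list stand highest, with medians of 2.45 and 1.67. The immediate early and cardiac lists stand lowest, with medians of -0.83 and -0.78. The 2 highest medians are no support, because genes such as Foxa2, Krt19 and Cldn7 passed the filter only through the positive cells. Over all members these medians were 0.45 and 0.69, beside 0.55 for the streak list.

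Most signalling lists held no called gene or a single one. Over all genes 0.813% were called higher and 0.374% lower, so a count of 0 in such a short list is near that share. Of 16 FGF pathway genes, 13 passed the filter and 1 was called higher, Dusp6, a phosphatase induced by FGF and ERK signalling. Dusp6 was detected in 15 of 15 positive cells at 1.26 to 385 FPKM (median 119), against 11 of 13 negative cells at 0.148 to 115 FPKM (median 8.47), a difference of 2.74, while the list's median was -0.62. Of 13 BMP pathway genes, 12 passed and 1 was called lower, Id2, an inhibitor of basic helix-loop-helix factors that BMP induces, with a difference of -2.79 and a list median of -0.45. Id2 differed by -0.86 among cells numbered up to 48 and by -4.24 among higher numbers. Of 10 NOTCH pathway genes, 7 passed and 1 was called lower, the target Hey1, at -2.10, with a list median of -0.36; Hey1 came short of 2 on leaving out any of the negative cells C09, C32, C46, C69 and C70, and stood at -1.83 without C70. The WNT list (15 of 19 passed, median -0.07), the Nodal list (7 of 11, median -0.03) and the planar cell polarity list (8 of 11, median -0.49) held 0 called genes.

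No cell cycle gene was called. In lists this short a count of 0 is near the share over all genes, 0.813% higher and 0.374% lower. All 16 S phase and all 16 G2 and M phase genes passed the filter, 0 were called, and the medians were 0.12 and -0.61. The S phase genes had 9 positive and 7 negative signs, and the G2 and M phase genes had 2 positive and 14 negative signs. Of 15 glycolysis and hypoxia genes, 13 passed and 1 was called higher, the glucose transporter Slc2a3, at 2.29. Among 12 immediate early and heat shock genes, 9 passed and 1 was called lower, Egr1, at -2.82, with a list median of -0.83; these genes respond quickly to growth factors and to cell handling, and their part in the other results was not tested. The p53 and apoptosis list had 8 of 10 genes pass, 0 called and a median of 0.33.

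Markers of other cell types that express keratins 8 and 18 were checked. Of the 8 trophoblast genes, 1 passed the filter, and 5 were listed at 0 in all 48 cells, Elf5 and Ascl2 among them; the summed level was 0 to 50.6 FPKM (median 0.128) in positive and 0 to 47.3 FPKM (median 5.49) in negative cells. Of the 9 visceral endoderm genes, 3 passed and 0 were called. The median difference was 0.93 over these 3 genes and 0 over all 9. The median of the 3 turned negative among cells numbered up to 48. Afp and Ttr were listed at 0 in all positive and negative cells. The summed level was 11.7 to 975 FPKM (median 81.3) in positive and 0 to 1052 FPKM (median 42.9) in negative cells. Positive cells had 1 to 3 of the 9 genes at 1 FPKM or more and negative cells 0 to 2. The list's detected genes were mainly Apoe, an apolipoprotein not restricted to this tissue, in 14 of 15 positive and 11 of 13 negative cells (difference 1.07), and Dab2, an endocytic adaptor (0.93). The part of this list in the other results was not tested. None of 8 neurectoderm genes passed. The early germ cell list (4 of 9 passed, median -0.22), the endothelial and blood list (7 of 19, median 0.43) and the extraembryonic mesoderm list (2 of 9) held 0 called genes. Over all members the median was -0.44 for the early germ cell list and 0.03 for the endothelial and blood list. Counts of 0 in lists this short are near the shares over all genes, 0.813% higher and 0.374% lower.

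Most of the left-out cells carried T or Krt18 alone, in small numbers. In the 5 T-only cells, Cdh1, Cldn6, Fgf5, Foxa2, Cer1, Calca, Krt19 and Chrd were detected in none, and Krt8 was at 0, 0, 1, 3.57 and 7.92 FPKM. A count of 0 of 5 cells allows a share of up to 60%. The same T-only cells had Mixl1 at 0.912, 52.5, 68.1, 94.7 and 603 FPKM, Hhex in 3 of 5 and Car2 in 5 of 5, and Crabp1 and Aldh1a2 in 4 of 5 each. In the 10 Krt18-only cells, Krt8 was detected in 8, with a median of 34 FPKM. Cdh1, Foxa2, Fgf5 and Calca were each detected in 2 of those 10 cells and Cldn6 in 1, while Crabp1 was detected in 9 at a median of 299 FPKM. In positive cells Cdh1, Cldn6, Fgf5, Foxa2 and Calca were detected in 12, 11, 10, 8 and 11 of 15 cells, a higher share for each than in T-only, Krt18-only or negative cells. These genes had been called higher in positive cells, so this is a description. Of the 30 epithelial genes, Krt18-only cells C33 and C38 each had 12 at 1 FPKM or more, the median of positive cells. The other Krt18-only cells had 3 to 7. Among the remaining cells C05 had 13, and the others had 1 to 10.

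**Figure D4:**
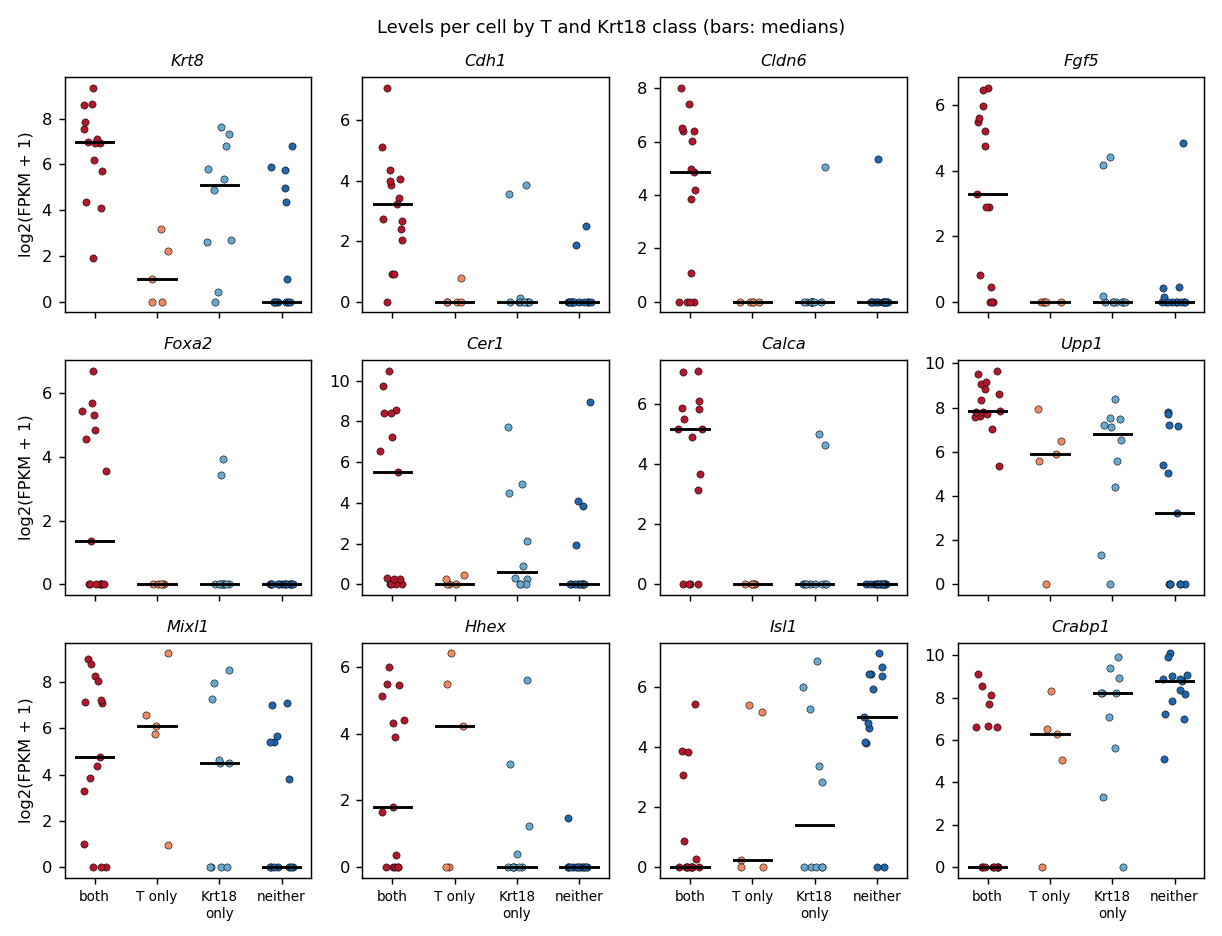
Level of 12 genes as log2(FPKM + 1) (vertical) in each cell (points), by class: T and Krt18 both at 10 FPKM or more (15 cells), T only (5), Krt18 only (10) and neither gene at 1 FPKM (13), with bars at class medians. Cdh1, Cldn6, Fgf5, Foxa2, Cer1 and Calca have no T-only cell at 1 FPKM or more, while Mixl1, Hhex and Upp1 do.

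Across all 48 cells, T and Krt18 had a Spearman's rho of 0.44, and neither followed the number of detected genes (rho of -0.01 for T and 0.06 for Krt18). These are descriptions over cells that share 1 sample and a capture device. Of 8848 genes detected in at least 10 cells, those with the pattern most like Krt18 were Krt8 (0.73), Calca (0.62), Spint2 (0.61), Cdh1 (0.61) and Cldn6 (0.57), against a median of 0.01 over all genes. Those most like T were Upp1 (0.58), Zcchc18 (0.58), Cldn6 (0.55), Dgkk, a diacylglycerol kinase (0.54), and Spint1 (0.53), against a median of -0.02. Krt8 had a rho of 0.38 with T. Cldn6 stood among the leading genes of both. The T and Krt18 values used here also chose the positive and negative cells, which are part of the 48 cells. The rankings thus partly restate the differences given above and are no separate support.

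The positive cells varied among themselves, for example in Crabp1. The split below was chosen after the values were seen and is given as a description. In 7 positive cells Crabp1 was at 97.4 to 557 FPKM (median 209), and in the other 8 it was listed at 0. Mesp1 was detected in 7 of 7 cells with Crabp1, at 6.90 to 94.5 FPKM, and in 1 of 8 without it, C42, at 36.1 FPKM. Hand1 was detected in 5 of 7 cells with Crabp1 and was listed at 0 in all 8 without it, and Pdgfra was detected in 5 of 7 and 1 of 8. T was at 13.2 to 89.4 FPKM (median 61.7) in cells with Crabp1 and 15.6 to 473 FPKM (median 221) in cells without it.

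Over all 23 pluripotency and epiblast genes, 15 had a higher and 8 a lower mean log2 level in the cells without Crabp1 than in those with it, with a median difference of 0.46. Values are given for the 3 genes of the list that were called. Fgf5 was detected in 3 of 7 cells with Crabp1 and 7 of 8 without it. Pou5f1 had a median of 4.59 FPKM in cells with it and 50.03 FPKM in cells without it, and Tdgf1 of 55.6 and 323 FPKM. The streak gene Mixl1 had a median of 8.75 FPKM in cells with Crabp1 and 205 FPKM in cells without it. The numbers of detected genes overlapped, with 4878 to 7010 in cells with Crabp1 and 4887 to 6960 in cells without it. Set against the same 13 negative cells, the cells with Crabp1 still had Krt8 higher by 3.48, Upp1 by 4.40 and Isl1 at -3.25, but Hand1 at 0.13, Sp8 at 0.07 and Mixl1 at 0.29. The cells without Crabp1 had Sp8 higher by 4.54, Mixl1 by 3.89 and Pim2 by 5.11.

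**Figure D5:**
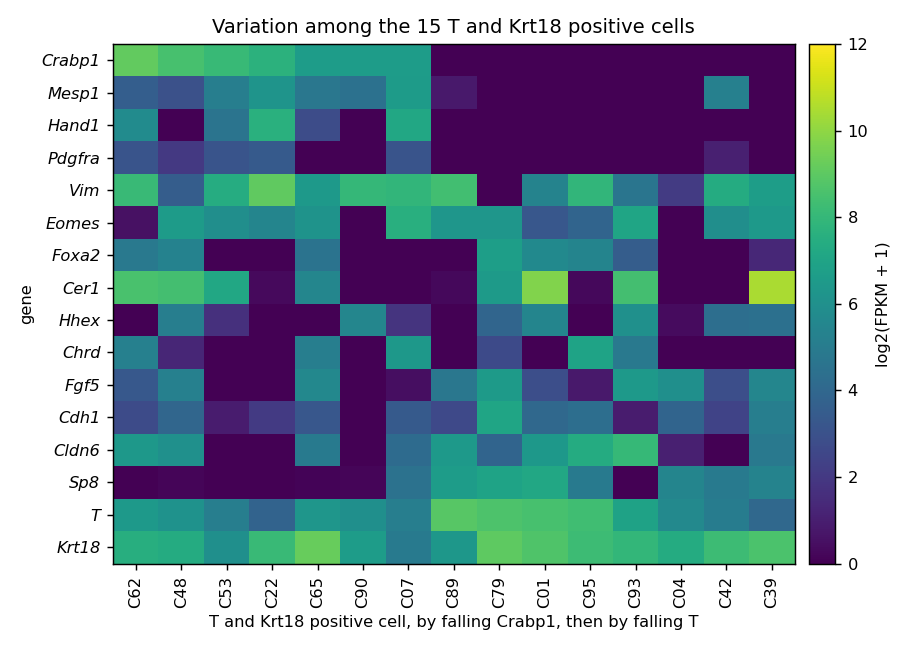
Level of 16 genes (rows) in each of the 15 positive cells (columns, by falling Crabp1 and then by falling T), coloured by log2(FPKM + 1). Mesp1 is present in all 7 cells with Crabp1 and in 1 of the 8 others at 1 FPKM or more, and T reaches its 4 highest values in cells where Crabp1 is listed at 0.

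Foxa2 split the positive cells along another line. The 8 cells with Foxa2 had Cer1 in 7 (median 339 FPKM), Chrd in 6, and Cldn6, Calca and Trh in all 8. The 7 cells without Foxa2 had Cer1 in 1, Chrd in 1, Cldn6 and Calca in 3 each, and Trh in 4. Detection of Hhex did not follow this split. Hhex was found in 5 of 8 cells with Foxa2 (median 17.1 FPKM) and 4 of 7 without it (median 2.15 FPKM). Krt18 was at 167 to 601 FPKM (median 339) in cells with Foxa2 and 29.3 to 297 FPKM (median 99.2) in cells without it. Foxa2 and Cer1 were detected together in 7 positive cells and 0 negative cells, and Foxa2, Cer1 and Hhex in 5 and 0. This split, too, was chosen after the values were seen. A single positive cell, C90, stood apart, with T and Krt18 above the rule but Krt8 at 2.72 FPKM and Cdh1, Cldn6, Foxa2, Fgf5, Cer1, Calca and Trh listed at 0. C90 also had the fewest detected genes of the positive cells, 4878, and the largest share of short RNA, 96.6% of its FPKM sum. Whether these bear on its values of 0 was not tested.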

How the data were processed

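Single-cell RNA was measured in 48 cells and deposited as 1 table of 23746 gene rows by cells. The deposited values are treated as FPKM: per the submitters' processing notes, Cufflinks 2.2.1.0, TopHat 0.7, CASAVA 1.8.2 and build mm10 were used, with no role or order, and the header names no unit. How reads were assigned to genes and how cells were scaled is not given in the sources used here. Each column was tied to a cell through the label's title.

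Rows of the 240 repeated symbols were summed, giving 23284 symbols. The 774 symbols of short RNAs, which took up 2.31% to 96.6% of the FPKM sum in positive cells and 1.72% to 90.0% in negative cells, were left out of the comparison. Differences are of means of log2(FPKM + 1), with a pseudocount of 1 FPKM, which understates changes of low genes; genes needed 1 FPKM in at least 5 cells of both sides together. No count test was run. With 1 sample per side there was no test either: cells are not replicates, and a difference is called by size alone. Shares carry exact Clopper-Pearson 95% intervals, and the limit for 0 cells is 3 counts. No cell was removed and no doublet caller was run, so a captured pair of cells could not be recognised. Depth per cell is unknown.

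The members, the 27 lists (381 genes, all found, Foxf1 and Pkm under the older symbols Foxf1a and Pkm2) and the thresholds were chosen with earlier results of these data known. Genes named are list members, the 15 largest differences each way, keratin and T-box genes detected in at least 5 of 48 cells, and the 5 genes most like T and like Krt18 by Spearman's rho; others are said to be named after their values were seen. Alternatives were 14 settings, leaving out each of 28 cells, and 2 settings added after the data had been seen. Coordinates are from GENCODE M21 (GRCm38) and promoters from RefSeq. Python 3.11.15, numpy 2.4.6, pandas 2.3.3 and scipy 1.17.1 were used, and the procedure was tested on simulated data.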

Additional observations from a re-analysis of the deposited data

How the results depend on the processing

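The counts of genes called (76 higher and 35 lower) stayed within 1.5 times without a filter, with a filter at 10 cells and on housekeeping scaling. They also did so with the rule at 20 FPKM and after regression on the number of detected genes. The rule at 5 FPKM picked the same 15 positive and 13 negative cells, so its counts could not differ. Out of the same 9346 genes the counts moved to 422 and 295 (4.52% and 3.16%) with a pseudocount of 0.1. With medians they were 360 and 295 (3.85% and 3.16%). Scaling each cell to a total of 1000000 without short RNA gave 128 and 79 (1.37% and 0.845%). Against the 7 negative cells with both genes at 0 they were 176 and 71 (1.88% and 0.76%), and against all other cells 45 and 12 (0.48% and 0.128%). Cells numbered up to 48, 7 positive and 5 negative, gave 224 and 161 (2.40% and 1.72%). There 23 of 9346 genes did not overlap between sides (13 higher and 10 lower). Higher numbers, 8 and 8 cells, gave 196 and 174 (2.10% and 1.86%). Groups this small cannot be set against the full sides by these counts. Without 7 cells of under 5189 detected genes, 4 of them positive and 1 negative, 126 genes were higher (1.35%). With 8 positive cells that lacked Crabp1 the counts were 164 and 106 (1.75% and 1.13%), with 2 of 9346 genes that did not overlap. With the 7 that held Crabp1, 116 were higher (1.24%), and Hand1 turned to 0.13. Leaving out each cell in turn gave 75 to 97 higher and 28 to 45 lower genes, and 0 without overlap. All 30 leading genes kept their sign in every setting where they were tested. They had been picked by their differences over the same cells, so this is no support. Among list medians, the node and endoderm list moved to 3.99 with a pseudocount of 0.1 and 0.45 without a filter, and the epithelial list to 2.86 and 0.69. Medians of several other lists, most of them near 0, changed sign under some settings; for example, the planar cell polarity median turned to 0.12 without a filter and 0.14 at label numbers above 48, and the NOTCH median to 0.29 with a filter at 10 cells and 0.27 with the cells that held Crabp1. No paired analysis was possible because the labels give 1 group. Depth per cell is unknown, which limits what a 0 can show; the cause of these shifts was not tested.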

Other observations

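Some genes that belong to no list were also called, and all genes named here and in the next paragraph were named after their values were seen. They were picked singly and form no tested group. Pard6a, a polarity protein, was detected in 9 of 15 positive cells (median 11.6 FPKM, highest 127 FPKM) and 1 of 13 negative cells (highest 4.89 FPKM), a difference of 2.58. Elf3, an epithelial ETS factor, was detected in 7 positive cells at up to 104 FPKM and 1 negative cell at 5.03 FPKM (difference 2.09), and Rbm47, an RNA-binding protein of endoderm, in 11 and 4 cells (2.15). Tnfrsf12a, the receptor of the cytokine TWEAK, was detected in 7 positive cells at up to 77 FPKM and was listed at 0 in all T-only, Krt18-only and negative cells. Pard6a and Rbm47 were also listed at 0 in all 5 T-only cells.

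Bex1 and Bex4, small X-linked genes of the same family, were detected in 15 of 15 positive cells, at 110 to 633 FPKM (median 458) and 57.8 to 681 FPKM. In negative cells Bex1 was at 7.86 to 390 FPKM (median 72.9) and Bex4 at 0 to 175 FPKM. Ly6e, a GPI-anchored surface protein, was at 3.17 to 784 FPKM (median 106) in positive cells and 0 to 424 FPKM (median 40.7) in negative cells. Mgst1, a microsomal glutathione transferase, was detected in 10 positive and 1 negative cells, and Slc29a1, a nucleoside transporter, in 11 and 4. Among lower genes, Rac1, a GTPase of cell movement, was at 0 to 105 FPKM (median 9.93) in positive cells and 9.64 to 135 FPKM (median 54.1) in negative cells, a difference of -2.04.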
